A study of Mus musculus with 10 samples.

Results

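Phosphate reabsorption, klotho signalling and vitamin D activation in the kidney are described here through 10 genes chosen by name for these roles, of 27876 genes in the table. They are the phosphate transporter genes Slc34a1, Slc34a3, Slc20a1 and Slc20a2, the klotho gene Kl, the FGF receptor gene Fgfr1, the parathyroid hormone receptor gene Pth1r, the vitamin D enzyme genes Cyp27b1 and Cyp24a1, and the vitamin D receptor gene Vdr. The table held 45 transcripts of these genes, and the transcript of highest mean level stood for each gene and is called its main transcript below.

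RNA was sequenced from kidneys of wild-type mice on day 14. One group of 5 mice received vehicle, and the other group of 5 received quinolinic acid, a product of tryptophan breakdown, at 0.5 g/L in drinking water. The labels give no strain, sex or age, and no label mentions an induced kidney injury. The series describes the sequenced animals as representative of their groups and does not say how they were picked.

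The kidney decides how much filtered phosphate returns to the blood. Sodium-phosphate cotransporters in the brush border of the proximal tubule take it up. Parathyroid hormone and FGF23 both lower that uptake by removing the cotransporters from the membrane. FGF23, a hormone from bone, acts through an FGF receptor paired with klotho. CYP27B1 makes the active hormone calcitriol from 25-hydroxyvitamin D, CYP24A1 breaks both down, and calcitriol acts through the vitamin D receptor.

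The authors' deposited table holds, for 85107 transcripts, the outcome of comparing vehicle with quinolinic acid: the log2 fold change (log2FC below), the p from edgeR's likelihood-ratio test, and the mean expression as log2 CPM, read counts scaled to library size, across all 10 libraries. Values of single mice were not analysed here, and neither library depth nor mouse-to-mouse spread can be given. Intervals below are approximate 95% limits derived from log2FC and the likelihood ratio. Since the file leaves unstated which group was divided by which, every sign is given as deposited. Kidney markers were present, among them Lrp2 of the proximal tubule at 539 CPM, Umod of the thick ascending limb at 1274 CPM and Klk1 of the connecting tubule at 654 CPM in the authors' deposited table. No listed marker of bone cells, or of parathyroid and thyroid, reached 1 CPM in it, and the highest stood at 0.213 CPM.

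None of the 10 genes differed between vehicle and quinolinic acid at an adjusted p under 0.05 in the authors' edgeR likelihood-ratio test. Over all genes, each by its main transcript, the authors' deposited table called 6 (0.0215%). None of the 45 transcripts was called either, where the background over all transcripts was 0.0141%. At an unadjusted p under 0.05 the count was also 0 of 10 genes, against 4.09% of the 13115 genes of at least 1 CPM, and 0 of 45 transcripts, against 6.08% of all. The smallest unadjusted p among the 10 genes was 0.0854, for Cyp27b1, and the adjusted p ran from 0.794 to 1. Positive signs numbered 7 and negative signs 3 in the authors' deposited table, and the median log2FC was 0.09, beside 71.8% positive and a median of 0.08 over genes of at least 1 CPM. The split of signs was 6 to 4 with the median of those genes set to 0, and 5 to 5 after removing the trend of log2FC with transcript length and level.

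**Figure D1:**
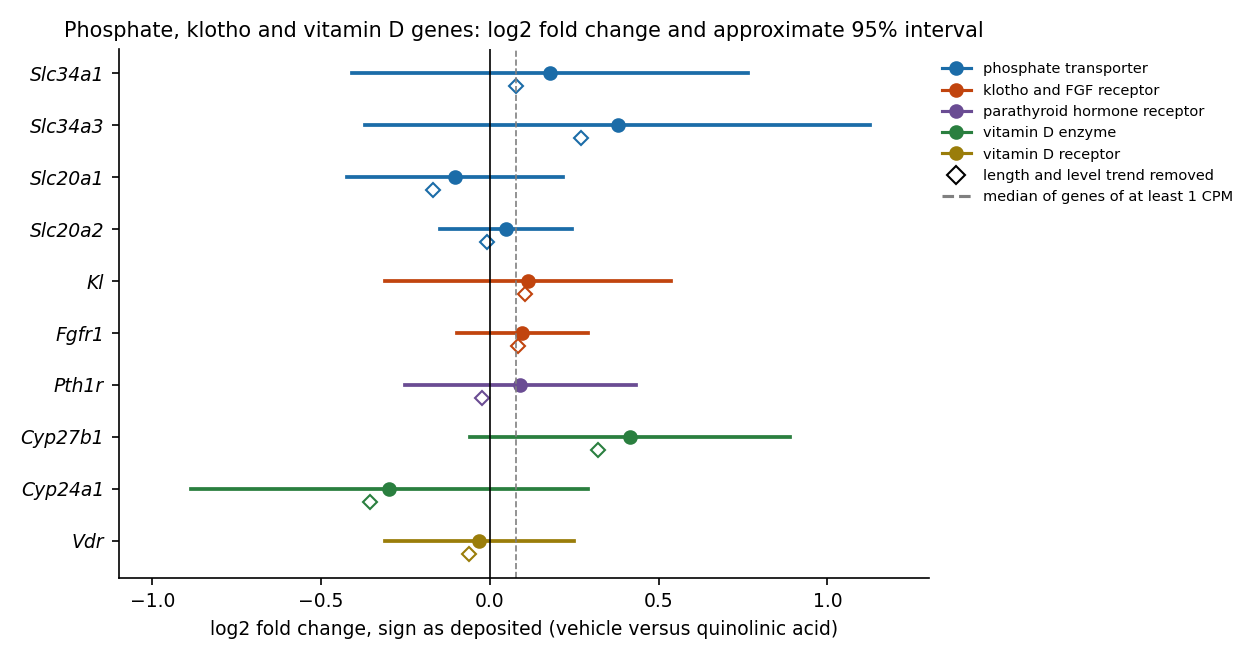
Deposited log2FC of the 10 genes (filled points) with approximate 95% intervals (lines), coloured by role; open diamonds give the value after removal of the length and level trend, and the dashed line marks the median of genes of at least 1 CPM. All 10 intervals include 0, and those of Slc34a3, Cyp24a1 and Slc34a1 are the widest.

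The 10 genes spanned a wide range of levels. Per kilobase of main transcript, computed from the authors' deposited table, Slc34a1 stood highest at 588 CPM per kb, above 99.8% of the genes of at least 1 CPM. It was followed by Pth1r at 95.8, Kl at 41.0 and Vdr at 19.6 CPM per kb. Then came Slc20a1 at 7.67, Cyp24a1 at 7.34, Slc20a2 at 5.54, Fgfr1 at 4.84 and Slc34a3 at 4.53 CPM per kb. Cyp27b1 was lowest at 1.14 CPM per kb. Without values per mouse the order of close neighbours, such as Slc20a1 and Cyp24a1, could not be set against any spread.

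**Figure D2:**
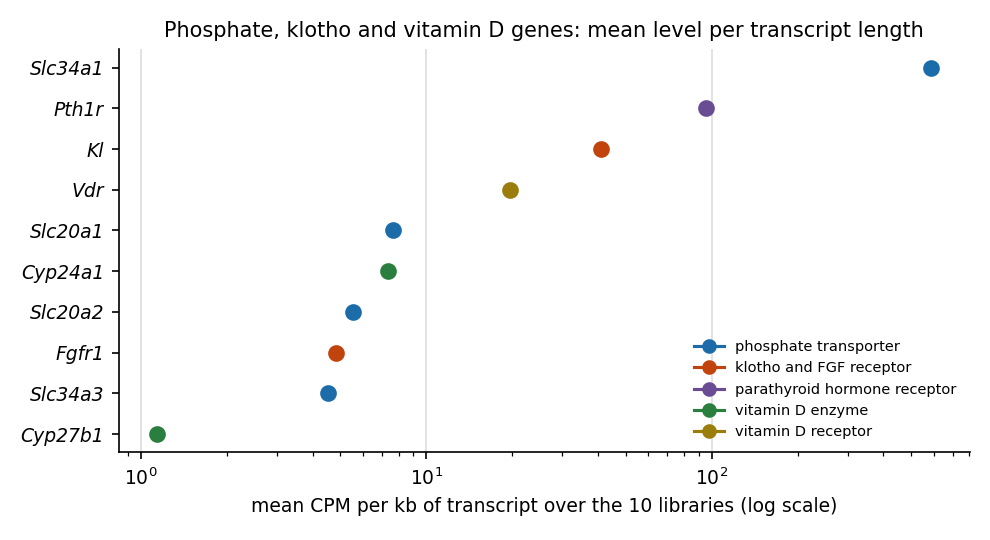
Mean level of each gene over the 10 libraries, in CPM per kilobase of its main transcript on a log scale, coloured by role. Slc34a1 stands at 588 and Cyp27b1 at 1.14 CPM per kb, with Slc34a3, Fgfr1, Slc20a2, Cyp24a1 and Slc20a1 close together between 4.53 and 7.67.

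Slc34a1 encodes NaPi-IIa, the main phosphate cotransporter of the adult mouse proximal tubule. The gene lies on chromosome 13 (main transcript 55399693 to 55414092, plus strand, mm10, 13 exons). In the authors' deposited table its log2FC was 0.18 (95% interval -0.41 to 0.76, p = 0.553) at 1430 CPM. After removal of the length and level trend the value was 0.077. The interval spans 0.753-fold to 1.70-fold, so that it holds no difference as well as a fall or a rise within those bounds. Fewer proximal tubule cells and less RNA per cell cannot be told apart in whole kidney. Of 10 listed proximal tubule markers, measured at 30.5 to 539 CPM, 7 had a positive sign in the authors' deposited table, with a median of 0.06 and a range of -0.11 to 0.30.

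Slc34a3 encodes NaPi-IIc, the second brush border cotransporter of this family, and lies on chromosome 2 (25228898 to 25234364, minus strand, 13 exons). Per kilobase its level was lower than that of Slc34a1 by a factor of 130. In the authors' deposited table its log2FC was 0.38 (-0.37 to 1.13) at 9.89 CPM, p = 0.321. That interval, from 0.774-fold to 2.18-fold, was the widest of the 10. The median over its 7 transcripts was 0.25.

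Slc20a1 and Slc20a2 encode PiT-1 and PiT-2, sodium-phosphate transporters found in many tissues, of which PiT-2 is also placed in the proximal tubule brush border. Slc20a1 (chromosome 2, 129198764 to 129211616, plus strand, 11 exons) had a log2FC of -0.10 (-0.42 to 0.22) at 25.4 CPM, p = 0.526 in the authors' deposited table. Slc20a2 (chromosome 8, 22476788 to 22569612, plus strand, 11 exons) had one of 0.05 (-0.15 to 0.24) at 19.8 CPM, p = 0.630 in the authors' deposited table. For Slc20a1 the median over its 8 transcripts was -0.33, and the value after removal of the length and level trend -0.17. The Slc20a2 value was among the tightest, with bounds of 0.903-fold and 1.18-fold, and its sign turned negative both with the median of genes set to 0 (-0.029) and after removal of the length and level trend (-0.0078). The 4 transporter genes thus showed 3 positive signs and 1 negative sign as deposited, and 2 of each under either alternative.

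Kl encodes alpha-klotho, the co-receptor that lets FGF23 bind its receptor, and is best known in the kidney from the distal tubule. It lies on chromosome 5 (150952607 to 150993817, plus strand, 5 exons) and the table held 1 transcript of it. Its log2FC was 0.11 (-0.31 to 0.54) at 210.0 CPM, p = 0.604 in the authors' deposited table. The interval reaches from 0.806-fold to 1.45-fold. All 6 listed markers of the distal convoluted and connecting tubule had a positive sign in the authors' deposited table, with a median of 0.34 and levels of 6.20 to 654 CPM. After removal of the length and level trend that median was 0.15. None of them passed the test, and their part in the Kl value was not tested.

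Fgfr1 encodes an FGF receptor that pairs with klotho. It lies on chromosome 8 (25518759 to 25575718, plus strand, 18 exons). Its log2FC was 0.10 (-0.10 to 0.29) at 24.3 CPM, p = 0.333 in the authors' deposited table. Its bounds of 0.934-fold and 1.22-fold were as tight as those of Slc20a2. Pth1r encodes the G protein-coupled receptor for parathyroid hormone and lies on chromosome 9 (110722088 to 110743686, minus strand, 15 exons). In the authors' deposited table it stood at 0.09 (-0.25 to 0.43) and 213 CPM, p = 0.604. Its sign turned negative, to -0.023, once the length and level trend was removed.

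The enzymes that make and break down calcitriol had opposite signs, and neither passed the test. Cyp27b1, the 1-alpha-hydroxylase gene (chromosome 10, 127048250 to 127052969, plus strand, 9 exons), had a log2FC of 0.42 (-0.06 to 0.89) at 2.72 CPM, p = 0.0854, adjusted p 0.794, per the authors' deposited table. Cyp24a1, the 24-hydroxylase gene (chromosome 2, 170482708 to 170497145, minus strand, 12 exons), had one of -0.30 (-0.89 to 0.29) at 26.1 CPM, p = 0.321, adjusted p 0.824, per the authors' deposited table. After removal of the length and level trend the values were 0.32 and -0.35. Whether the pair differed from each other could not be tested without values per mouse. Per kilobase Cyp24a1 stood above Cyp27b1 by a factor of 6.43.

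Vdr encodes the vitamin D receptor, a nuclear receptor that binds DNA together with a retinoid X receptor. It lies on chromosome 15 (97854425 to 97908310, minus strand, 10 exons). Its log2FC was -0.03 (-0.31 to 0.25) at 85.6 CPM, p = 0.823 in the authors' deposited table. The bounds were 0.805-fold and 1.19-fold. The median over its 6 transcripts was -0.40, and the value after removal of the length and level trend -0.061.

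The genes were measured with unequal precision, and level alone did not order it. The approximate standard error ran from 0.099 on the log2 scale for Fgfr1 and Slc20a2 to 0.38 for Slc34a3, a factor of 3.84. Each error was set beside those of other genes within 1 log2 unit of mean CPM. That of Slc34a3 was above 99.6% of 5360 such genes and that of Cyp24a1 above 99.2% of 4784. Slc20a1, at nearly the level of Cyp24a1, stood above 86.8%, whereas Slc20a2 (4.95%) and Fgfr1 (4.50%) were among the most precise at their level. Cyp27b1 stood above 83.1%, Kl above 77.1%, Pth1r above 53.5% and Vdr above 49.0%. For Slc34a1 the figure was 78.3%, over only 23 genes of like level. High errors were not particular to these genes, since by the same measure the 10 listed proximal tubule markers ran from 67.5% to 99.0%. Which mice carried this variation cannot be seen in a finished comparison.

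These errors set what the test could call. At its error, the difference needed to reach the smallest likelihood ratio called in the authors' deposited table was 1.38-fold for Fgfr1 and Slc20a2, 1.58-fold for Vdr, 1.69-fold for Slc20a1, 1.75-fold for Pth1r and 2.01-fold for Kl. It was 2.18-fold for Cyp27b1, 2.62-fold for Slc34a1, 2.63-fold for Cyp24a1 and 3.41-fold for Slc34a3. At the same error, an estimate below its size would have had a smaller likelihood ratio than every called transcript. The exact limit of the adjustment over all transcripts may lie somewhat lower. These sizes do not bound the true difference, and smaller true differences in any of the 10 genes may have gone uncalled.

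**Figure D3:**
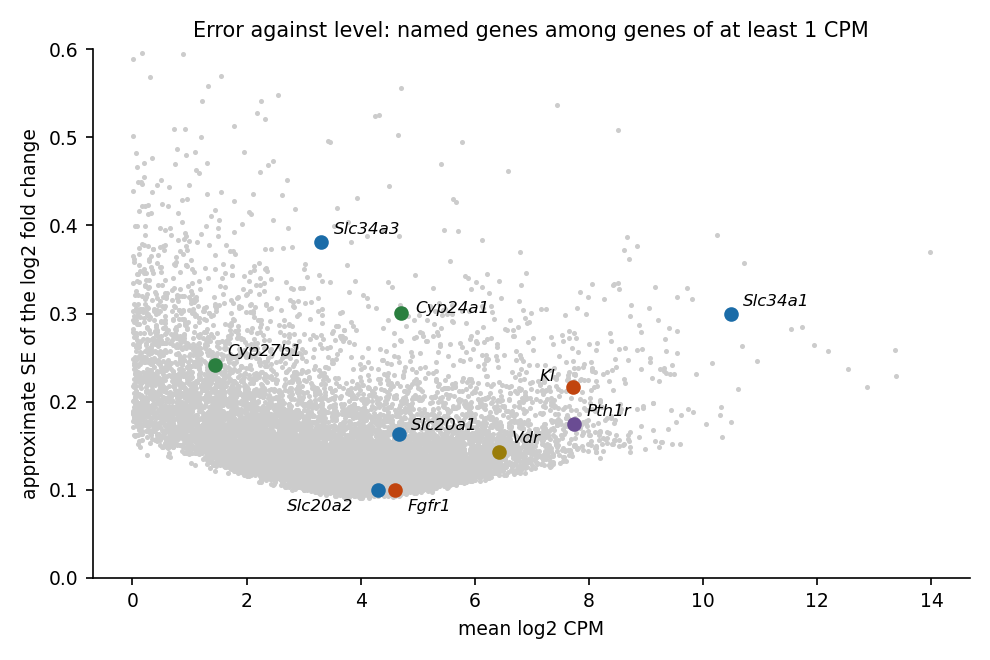
Approximate standard error of the log2FC against mean log2 CPM, for genes of at least 1 CPM (grey; genes with an error above 0.6 lie outside the axis) and the 10 genes (coloured by role). Slc34a3 and Cyp24a1 lie far above most genes of their level, and Slc20a2 and Fgfr1 at the lower edge.

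Within genes, the deposited fold change was not the same for transcripts that cover different stretches of the gene; these differences within a gene were not tested. The table held more than 1 transcript for 6 of the 10 genes, and such transcripts share reads. Beside the 10 main transcripts, 10 further ones ended within 1500 nucleotides of the main transcript's 3′ end, measured on the genome with introns included, or beyond it. Their log2FCs lay within 0.068 of the main value. The other 25, from 5 genes, ended more than 1500 nucleotides short, and all 25 had a lower log2FC than the main transcript in the authors' deposited table. The distance of 1500 nucleotides was set after the values were seen. The same direction held for 86.9% of 22472 such transcripts in 6312 genes, each of at least 0.1 CPM in a gene with a coding main transcript of at least 1 CPM, so that the pattern is not a property of these 10 genes. The difference over all such transcripts had a median of -0.17, and over the 25 one of -0.23.

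Vdr showed the widest gap. Its 5 short transcripts, at 0.865 to 3.89 CPM, had log2FCs of -0.41 to -0.32 in the authors' deposited table, beside -0.03 for the full-length one. Of the 5, 4 are coding transcripts and 1 retains an intron. For Slc20a1 the 6 short transcripts, which end 3358 to 11800 nucleotides before the main one, had values of -0.36 to -0.33 beside -0.10 in the authors' deposited table. None of these short transcripts of either gene had an unadjusted p under 0.05.

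Slc34a3 had lower values the farther its transcripts ended from the main 3′ end. Its 6 short transcripts, all annotated as processed and not coding, had a log2FC of 0.32 where the transcript ended 1884 nucleotides short, of 0.24 to 0.25 where it ended 3066 to 3112 short, and of 0.16 and 0.15 at 3383 and 3528 in the authors' deposited table. All their intervals included 0, and p ran from 0.471 to 0.755. In Fgfr1 the 2 sets of transcripts had opposite signs, and every interval included 0. Its transcripts that reach the 3′ region had log2FCs of 0.10 to 0.16 (smallest p 0.118), and the 7 that end at least 3261 nucleotides short had -0.14 to -0.01 (smallest p 0.450) in the authors' deposited table. The 1 short transcript of Cyp27b1 stood at 0.15 and 0.143 CPM beside 0.42 for the main one. What set this difference along the gene was not tested.

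**Figure D4:**
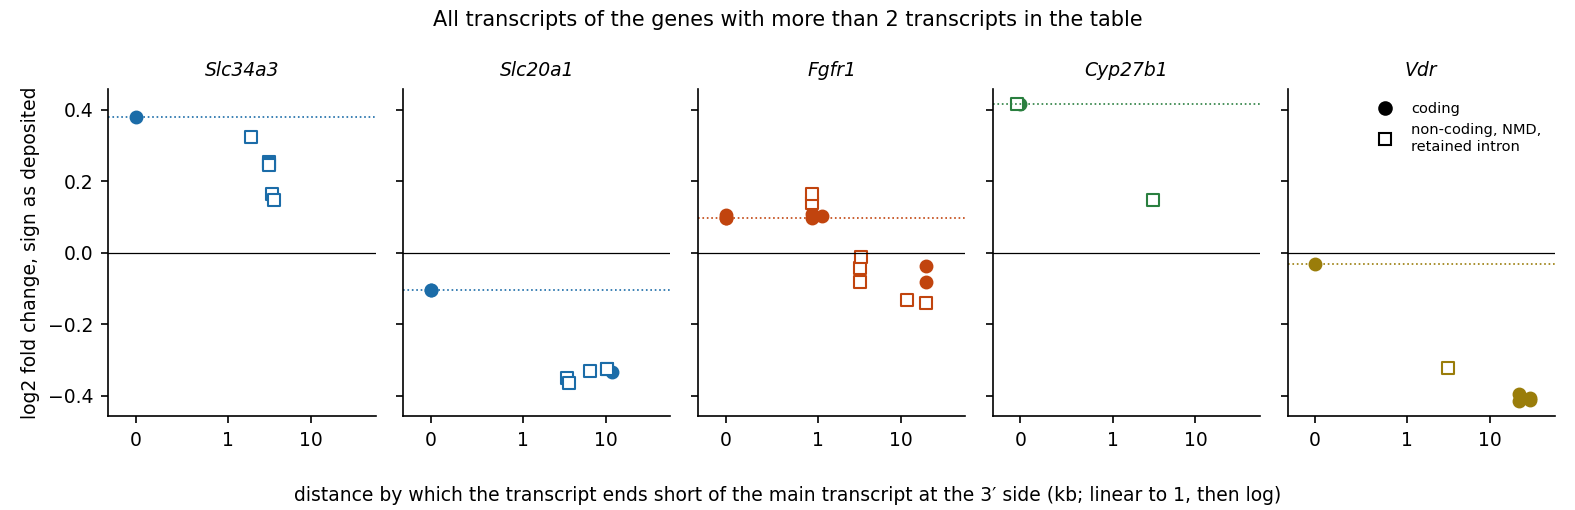
Deposited log2FC of every transcript of the 5 genes with more than 2 transcripts in the table, against how far it ends short of the main transcript at the 3′ side (kb, linear to 1 and then log); filled circles are coding transcripts, open squares others, and the dotted line marks the main value. Every transcript more than 1500 nucleotides short lies below the dotted line, most clearly in Vdr and Slc20a1.

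The wider pathway also gave no called gene. Of 59 further genes of phosphate, klotho, parathyroid hormone, vitamin D and calcium handling, 58 were measured and none passed over all transcripts in the authors' edgeR likelihood-ratio test. Among the 48 of at least 1 CPM, 28 had a positive and 20 a negative sign in the authors' deposited table, with a median of 0.03 beside 0.08 over all genes of that level. At an unadjusted p under 0.05 there were 3 with a positive sign, where the background was 3.20%, and 1 with a negative sign, where it was 0.884%. These 4 were Gc, Cyp27a1, Galnt3 and Pde4d. After removal of the length and level trend their values were 0.57, 0.19, 0.21 and -0.49. An approximate chi-square test on those values gave an unadjusted p of 0.0283, 0.115, 0.0785 and 0.0254, in that order. The same test gave 0.0412 for Akap10, at -0.22.

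None of the other phosphate transporter and scaffold genes passed the test. Slc34a2, the cotransporter best known from lung and intestine, was measured in the authors' deposited table at 11.7 CPM, its log2FC being -0.21 (-0.59 to 0.17). Of 6 scaffold and anchoring genes, 4 were positive, and the median was 0.06. Akap10, an anchor of protein kinase A, stood at -0.17 (-0.38 to 0.04), Slc9a3r2, the NHERF2 gene, at 0.18 (-0.07 to 0.43), and Slc9a3r1, the gene of the NHERF1 scaffold that holds NaPi-IIa at the brush border, at 0.22 (-0.11 to 0.56) in the authors' deposited table.

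On the FGF23 side, the 8 genes of at least 1 CPM, Kl and Fgfr1 among them, had 6 positive signs and a median of 0.08. Galnt3, the enzyme that protects FGF23 from cleavage by glycosylating it, had a log2FC of 0.25 (0.02 to 0.48) at 22.1 CPM, p = 0.0323, adjusted p 0.794, per the authors' deposited table. Fam20c, a kinase that phosphorylates FGF23, stood at 0.17 (-0.04 to 0.39) and Frs2, an adaptor of FGF receptors, at -0.13 (-0.34 to 0.09) in the authors' deposited table. The hormone gene Fgf23 itself was measured at 0.0284 CPM, and Klb, the co-receptor gene related to Kl, at 0.0298 CPM, both named after their values were seen. The proteases that can shed klotho from the cell surface had values close to 0, namely -0.03 (-0.27 to 0.20) for Adam17, -0.02 (-0.26 to 0.21) for Bace1 and 0.01 (-0.27 to 0.29) for Adam10 in the authors' deposited table.

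Among the 8 genes of parathyroid hormone signalling and calcium sensing of at least 1 CPM, Pth1r included, 5 had a positive sign. Pde4d, a phosphodiesterase that breaks down cyclic AMP, had a log2FC of -0.45 (-0.88 to -0.03) at 2.84 CPM, p = 0.0376, adjusted p 0.794, per the authors' deposited table. The calcium-sensing receptor gene Casr stood at -0.34 (-0.72 to 0.03) and Gnaq, a G protein alpha subunit gene, at -0.16 (-0.36 to 0.03) in the authors' deposited table.

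The vitamin D list divided evenly, with 5 positive and 5 negative signs among its 10 genes of at least 1 CPM. Gc, the vitamin D-binding protein gene, had the largest value, a log2FC of 0.70 (0.19 to 1.21) at 20.3 CPM, p = 0.00705, adjusted p 0.677, per the authors' deposited table. Gc is best known as a liver gene, and all 4 listed liver markers, at 0.335 to 60.9 CPM, were positive, their median being 1.23. Only 2 of these reached 1 CPM, Ttr at 0.45 (-0.19 to 1.10) and Alb at 1.27 (0.38 to 2.15), with a median of 0.86. The part of the liver markers in the Gc value was not tested. Cyp27a1, a sterol hydroxylase that can also 25-hydroxylate vitamin D, stood at 0.32 (0.08 to 0.55) and 19.9 CPM, p = 0.00872, adjusted p 0.698, per the authors' deposited table.

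Genes of distal calcium reabsorption, several of which are targets of calcitriol, had 4 positive and 3 negative signs. The calbindin genes Calb1 and S100g stood at 0.40 (-0.06 to 0.86, p = 0.0905) and 0.38 (-0.22 to 0.98), and the sodium-calcium exchanger gene Slc8a1 at -0.22 (-0.79 to 0.34) in the authors' deposited table. Of the 8 mineralisation and phosphate hormone genes of at least 1 CPM, 6 were positive, and the median was 0.18. They were led by Alpl, the tissue-nonspecific alkaline phosphatase gene, at 0.35 (-0.04 to 0.74, p = 0.0750), Mgp, the matrix Gla protein gene, at 0.37 (-0.09 to 0.82), and Stc2, a stanniocalcin gene, at 0.27 (-0.15 to 0.69) in the authors' deposited table. After removal of the length and level trend this median was 0.11.

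None of the listed cell type markers was called. The thick ascending limb list had 1 positive sign among 4 genes and a median log2FC of -0.06 in the authors' deposited table. All markers of the collecting duct (6 genes, median 0.14), podocytes (4, 0.13), endothelium (5, 0.19) and immune cells (5, 0.16) were positive in it, as were 71.8% of genes of at least 1 CPM. Only 3 of the immune cell markers reached 1 CPM, and their median was 0.11. The 4 adipocyte markers, at 0.0583 to 1.43 CPM, had a median log2FC of 4.16 in the authors' deposited table. Their part in the values of the 10 genes was not tested.

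**Figure D5:**
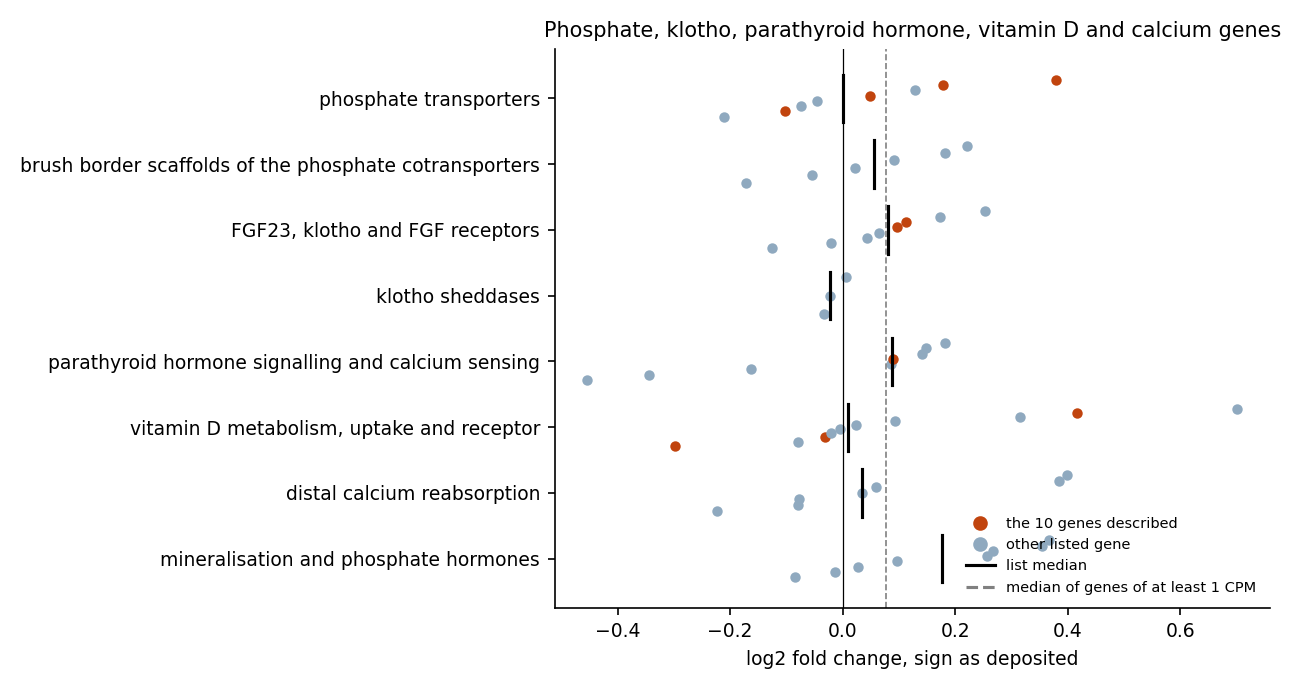
Deposited log2FC of the listed genes of at least 1 CPM by role, with the 10 genes described in red, other genes in blue, list medians as black bars and the median of genes of at least 1 CPM as a dashed line. The list medians lie between -0.02 and 0.18, and Gc at 0.70 is the farthest from 0.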

How the data were processed

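The submitters' processing notes name STAR 2.5.3a, FastQC 0.11.2, edgeR, Subread 1.4.6 and its featureCounts, with mm10 as genome build; strand setting, filters and annotation release are not given in the sources used here. For each transcript the authors deposited, per the file headers, log2 values (fold change and mean CPM), a likelihood-ratio score and the p-value before and after adjustment.

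Of the transcript identifiers, 98.0% were found in GENCODE vM21 (GRCm38) once versions were dropped. Ties for the highest mean CPM went to the coding transcript. The approximate standard error is log2FC, without its sign, over the root of the likelihood-ratio score. Trends were removed by loess (span 0.5) on log2 length and mean log2 CPM. The removal was tested on simulated data for genes of at least 1 CPM with a trend in length only. Its removal of a trend with level was not tested. Python 3.11.15, pandas 2.3.3, scipy 1.17.1, R 4.3.3 and matplotlib 3.10.9 were used. Exons of the main transcripts of Slc20a1, Slc20a2, Fgfr1 and Cyp24a1 overlap other genes on the opposite strand. For Slc20a1 the overlap was 9.50% of its length with 9830144P21Rik and 6.91% with Gm4430. For the others it was at most 2.66%.

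Genes were called at a deposited adjusted p under 0.05. Besides the 10 genes, up to 3 of each pathway list with the smallest p at 1 CPM or more are named, and up to 2 markers of each cell type. The genes and lists were chosen with earlier results of these data known. P-values set the difference between the groups against the spread between these mice as the authors modelled it.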

Additional observations from a re-analysis of the deposited data

How the results depend on the processing

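No paired analysis was possible because the table holds a finished comparison with no values per library, and for the same reason no mouse could be left out. The count of the 10 genes called stayed at 0 at an adjusted p under 0.1, at an unadjusted p under 0.05, with adjustment over 1 transcript per gene, over transcripts of at least 1 CPM or over coding transcripts, with the coding transcript for each gene, and after removal of the length and level trend. The count of the 45 transcripts called stayed at 0 under those alternatives that apply to transcripts. The smallest unadjusted p of the 45 in edgeR's test was 0.0854, and an adjusted p is never below the unadjusted one. Adjustment over other sets of transcripts therefore could not give a call at 0.05 among the 45 transcripts or the 10 genes. Of the 58 wider genes none was called under the alternatives listed for the 10 genes, except that 4 had an unadjusted p under 0.05 in edgeR's test. With the trend removed, edgeR's test was replaced by an approximate chi-square test on the squared ratio of the value to its standard error. The sign of Slc20a2 turned to -0.0078 and that of Pth1r to -0.023 with the trend removed, and Slc20a2 turned to -0.029 with the median of genes of at least 1 CPM set to 0, an alternative chosen after seeing the data. The cause was not tested. The other 8 and 9 genes kept their sign under these 2 alternatives. All 10 main transcripts are coding, so that taking the coding transcript could change nothing. With the median over a gene's transcripts all 10 kept their sign, which for the 4 genes with 1 transcript held by construction. That median moved 3 values by more than 1.5 times, Vdr from -0.03 to -0.40, Slc20a1 from -0.10 to -0.33 and Slc34a3 from 0.38 to 0.25. Trend removal, besides turning 2 signs, moved in this way Slc34a1 from 0.18 to 0.077, Slc20a1 to -0.17 and Vdr to -0.061. Setting the median to 0 lowered every value by 0.077, which moved 6 of those that kept their sign by more than 1.5 times, Slc34a1 to 0.10, Kl to 0.036, Fgfr1 to 0.020, Pth1r to 0.014, Slc20a1 to -0.18 and Vdr to -0.11.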

Other observations

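Over the whole table the fold change also differed by position within a gene. Among further transcripts of at least 0.1 CPM in genes with a coding main transcript of at least 1 CPM, those ending within 200 nucleotides of the main 3′ end had a lower log2 fold change than the main transcript in 33.0% of 7514 cases, with a median difference of 0.00. Equal values counted as not lower, and ties were not counted apart, so that the 33.0% gives no direction. Of 1079 transcripts ending more than 200 nucleotides beyond the main 3′ end the share with a lower value was 58.9%, with a median difference of -0.0091. On the short side the share was 64.2% of 5833 transcripts ending more than 200 and up to 1500 nucleotides short, 80.6% of 7916 ending up to 5000 short and 90.3% of 14556 ending farther away, with median differences of -0.01, -0.10 and -0.22. Beyond 1500 nucleotides the share was alike for coding transcripts (88.1%), transcripts subject to nonsense-mediated decay (89.3%), transcripts with a retained intron (86.0%) and other processed transcripts (85.5%). Transcripts of a gene share reads and are not independent, and distances include introns.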
